A study of Mus musculus with 2 samples.

Results

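Foxp3, Ikzf2, Il10 and Nrp1 are 4 of the 11971 genes counted in colonic CD4 T cells of mice with transfer colitis. They were chosen by name as genes of regulatory T cells, and all 4 were in the table. Each was followed in every mouse, in and outside the cell cluster that the deposited annotation names regulatory.

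Recipients were Rag-/- mice, which lack T and B lymphocytes of their own, so the sorted T cells came from the transfer. The KO-labelled mice had been given BCL-6 deficient CD4+ T cells, and the WT-labelled mice naive or CD45RBhigh, CD25- CD4+ T cells. The CD25- sort leaves out most regulatory T cells, and the sources used here do not say whether the KO cells were sorted in the same way, nor do they give the mouse age, the time after transfer and the driver of the deletion. TCRb+CD4+ cells of the colon were sorted, and the cells of 6 KO-labelled and 6 WT-labelled mice were told apart by hashtag antibodies within 1 pooled library that reads the 5′ end of transcripts.

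Regulatory T cells restrain other T cells and keep the colon tolerant of its microbes. Foxp3 encodes the transcription factor that defines them. Ikzf2 encodes Helios, a zinc finger factor common in regulatory T cells from the thymus, and Nrp1 encodes neuropilin-1, a surface receptor used to mark the same thymic origin in mice. Il10 encodes interleukin 10, an inhibitory cytokine made by colonic regulatory T cells and also by other helper T cells, among them the Foxp3-negative Tr1 type. Transfer of naive CD4 T cells without regulatory T cells causes colitis in such hosts, and in mice interleukin 10 and Foxp3-positive cells hold it back.

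The table held 18860 cells, 9708 under the KO label and 9152 under the WT label, with 4252124 to 5523025 unique molecular identifiers (UMIs, each 1 captured transcript) per mouse. Levels are given as CPM, UMIs of a gene per 1e+06 UMIs. Bcl6 stood at 65.8 to 91.3 CPM in KO-labelled mice and 48.4 to 69.6 CPM in WT-labelled mice (edgeR, log2 fold change 0.48 ± 0.10, SE, adjusted p = 0.00398). It was not lower in KO-labelled mice, and the reads cover the 5′ end while the deleted part of Bcl6 is not given, so the count cannot check the labels. KO-labelled mice 1 and 2 gave the most regulatory cells, 59 and 83. Without them 770 genes in place of 1405 were called over all cells, with 4 in place of 6 KO-labelled mice in the test. Some of the results below, though not all, are also given without these mice.

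The positions below are from GENCODE vM21 on GRCm38. Foxp3 (ENSMUSG00000039521.13) lies on chromosome X, 7573644 to 7595245, plus strand. Ikzf2 (ENSMUSG00000025997.13) lies on chromosome 1, 69531214 to 69687245, minus strand, and Il10 (ENSMUSG00000016529.5) on chromosome 1, 131019845 to 131024974, plus strand. Nrp1 (ENSMUSG00000025810.9) lies on chromosome 8, 128358604 to 128503363, plus strand. Foxp3 overlaps Flicr, a noncoding RNA gene on the same strand with 95 UMIs, 77.9% of them in regulatory cells. Ppp1r3f and Ccdc22 on the opposite strand also overlap Foxp3, and 8.56% and 3.57% of their UMIs were in regulatory cells. Ikzf2 overlaps the antisense gene Gm29114, with 38 UMIs. No source used here says if strand was used in counting, so reads in the overlaps are uncertain.

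The promoters of Foxp3 are shown because BCL6, the factor that the labels give as missing from the KO cells, binds a core close to the STAT core. RefSeq (GRCm38.p6) gave 2 Foxp3 windows and 1 Nrp1 window of 250 bases before a transcript start. Capitals mark TTCCNNGAA, the BCL6-type core, searched on both strands, every match of which is also a match to the STAT-type core TTCNNNGAA.

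Foxp3, chrX:7579426-7579675, plus strand: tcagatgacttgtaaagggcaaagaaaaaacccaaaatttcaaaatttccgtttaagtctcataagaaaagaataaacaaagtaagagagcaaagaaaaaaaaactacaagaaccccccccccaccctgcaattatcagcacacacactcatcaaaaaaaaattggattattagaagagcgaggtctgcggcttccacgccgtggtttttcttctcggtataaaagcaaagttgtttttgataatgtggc

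Foxp3, chrX:7580233-7580482, plus strand: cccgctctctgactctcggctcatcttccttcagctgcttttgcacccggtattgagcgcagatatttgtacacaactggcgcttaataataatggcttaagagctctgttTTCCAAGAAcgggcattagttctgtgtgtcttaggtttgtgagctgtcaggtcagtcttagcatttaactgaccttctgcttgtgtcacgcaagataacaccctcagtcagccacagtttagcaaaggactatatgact

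The second Foxp3 window held 1 match, TTCCAAGAA, from 139 to 131 bases before the start, and neither the first window nor that of Nrp1 held one. Of 32851 windows of this length, 4.06% held TTCCNNGAA and 7.02% held TTCNNNGAA. Such a match is a description of the letters and does not show binding.

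The regulatory cluster held 380 cells, 254 under the KO label and 126 under the WT label. A KO-labelled mouse gave 19 to 83 of them, against 10 to 40 in a WT-labelled mouse. Their median depth was 2453 UMIs for the KO label and 2700 UMIs for the WT label. The label was checked against other markers of regulatory T cells. Lrrc32, which encodes the GARP receptor that displays latent TGF-β, had 90.5% of its UMIs in this cluster. Itgb8, the integrin chain that activates TGF-β, had 86.7%, and the folate receptor gene Izumo1r 34.6%. These were the highest shares among the counted genes of the regulatory T cell programme followed below. Others were lower, with Ikzf4 at 25%, Tnfrsf9 at 23.7%, Il2ra at 8.46%, Ctla4 at 6.09%, Tnfrsf4 at 5.75% and Tnfrsf18 at 5.26%. Tgfb1 stood at 3.3%, Nt5e at 2.57% and Icos at 2.33%, while the cluster held 380 of all 18860 cells. The cytokine gene Il17a had 2.85 CPM in regulatory cells under the KO label and 0 CPM under the WT label. Genes of the tissue-type list varied. The growth factor gene Areg had 2211 CPM in KO-labelled and 2786 CPM in WT-labelled mice, the interleukin 33 receptor gene Il1rl1 352 and 263 CPM, and the inhibitory lectin receptor gene Klrg1 919 and 447 CPM. Batf, a factor of tissue regulatory T cells, stood at 244 and 226 CPM in the cluster against 243 and 404 CPM outside it, and Irf4 at 105 and 126 CPM against 119 and 118 CPM. Clusters were made from these genes, so these values describe the cluster and no test was made.

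Markers of other cell types were looked for in the same cluster. The gamma delta T cell list, 2 of 2 in the table, summed to 0 CPM in regulatory cells under the KO label and 2.63 CPM under the WT label, with Trdc at 0, and the NK cell list, 2 of 3 in the table, to 1.42 and 2.63 CPM, with Klre1 at 0. The B cell list had 2 of its 5 markers in the table, and its summed level in regulatory cells was 309 CPM under the KO label and 505 CPM under the WT label, while over all cells it was 9.92 to 25.2 CPM in KO-labelled mice and 19.9 to 36.7 CPM in WT-labelled mice. Ighm made up most of it, at 262 and 397 CPM in regulatory cells, against 9.43 and 5.12 CPM outside them. Of the epithelial list 4 of 5 markers were in the table, with a summed level of 45.6 and 23.7 CPM in regulatory cells, of which Epcam made up 41.3 and 23.7 CPM, and Muc2 was at 0. The myeloid list, 7 of 8 in the table, summed to 219 and 187 CPM there, of which Cst3 made up 201 and 168 CPM, with Cd68 at 8.55 and 7.89 CPM and Itgax and C1qa at 0. The innate lymphoid list, 2 of 2 in the table, summed to 358 and 274 CPM in regulatory cells, of which Il1rl1 made up 352 and 263 CPM. The CD8 T cell list, 2 of 2 in the table, summed to 11.4 and 15.8 CPM. The endothelial and stromal list, 1 of 4 in the table, stood at 19.9 and 18.4 CPM, and of the mast cell list 0 of 2 were in the table. The part of these cells or of free RNA in the results was not tested.

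Foxp3 UMIs lay almost wholly in the regulatory cluster, Il10 UMIs were split between it and further subsets, and most Ikzf2 and Nrp1 UMIs lay outside it. Of 546 Foxp3 UMIs in 282 cells, 89.9% were in regulatory cells. Of 362 Il10 UMIs in 164 cells the share was 55.2%, and of 1729 Ikzf2 UMIs in 1051 cells it was 39.4%. Nrp1 was the sparsest, with 132 UMIs in 112 cells, 25% of them in regulatory cells.

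**Figure D1:**
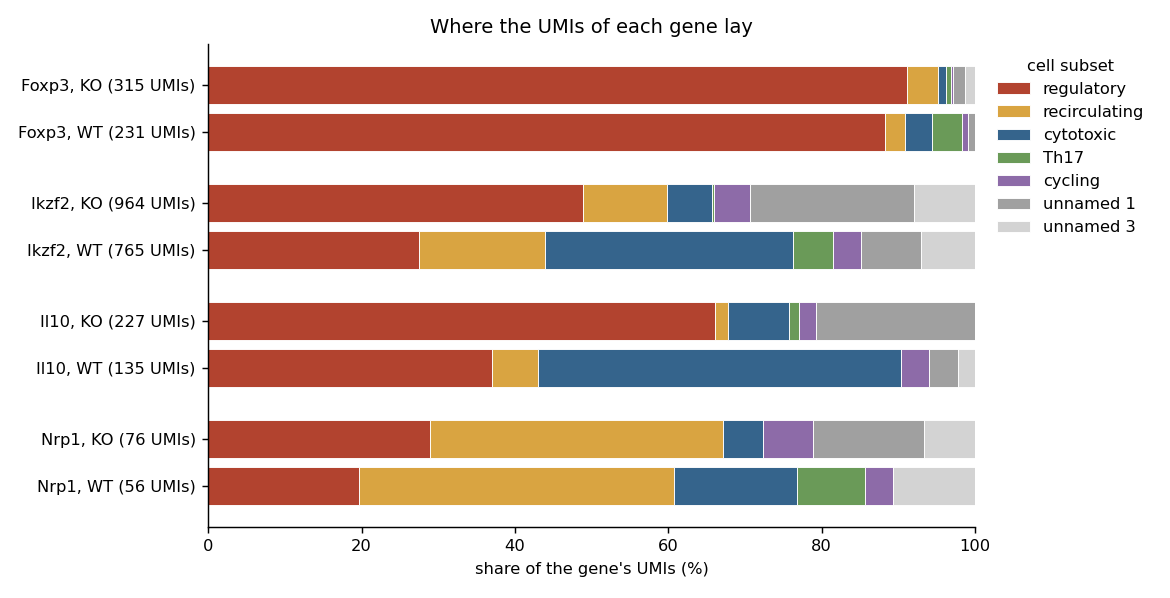
Share of the UMIs of each gene (horizontal axis, %) in each cell subset, pooled over the 6 mice of a label, KO above WT, with the number of UMIs beside each bar. Foxp3 lay in regulatory cells under both labels, at 91.1% in mice with the KO label and 88.3% in those with the WT label, while the remainder of Il10 lay mainly in unnamed 1 cells of KO-labelled and cytotoxic cells of WT-labelled mice.

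Subset by subset, Foxp3 stood at 409 CPM in regulatory cells under the KO label and 537 CPM under the WT label. The exact Poisson 95% intervals, which cover counting error only, were 363 to 459 and 466 to 616 CPM. In the 6 other subsets Foxp3 was between 0 and 1.91 CPM, and their intervals overlapped. Unnamed 3 cells of WT-labelled mice had no Foxp3 UMI in 693 cells, which allows a share of cells with a UMI of up to 0.433% and sets no limit on cells that express the gene.

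Cells outside the regulatory cluster with a Foxp3 UMI were rare. There were 21 of 9454 cells (0.222%) in mice with the KO label and 19 of 9026 (0.211%) in those with the WT label, and 18 and 15 of them had a single UMI. In regulatory cells, 60.2% and 70.6% had a Foxp3 UMI. Th17 cells, which should lack Foxp3, had a share of 0.178% in mice with the KO label and 0.302% in those with the WT label at median depths of 3161 and 3468 UMIs. The subsets outside the cluster had shares of 0% to 0.367%, and no difference between them is read as expression; whether these UMIs are background was not tested.

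Ikzf2 was counted in every other subset too. In KO-labelled mice it stood at 671 CPM in regulatory cells, 28.2 in cytotoxic, 24.1 in unnamed 1, 15.6 in recirculating, 15.2 in unnamed 3, 15 in cycling and 1.6 CPM in Th17 cells. In WT-labelled mice it stood at 552 CPM in regulatory, 32.5 in unnamed 3, 31.1 in cytotoxic, 26.3 in unnamed 1, 15.3 in recirculating, 9.24 in cycling and 6.38 CPM in Th17 cells. The ranges over mice of neighbours in this order overlapped, except that regulatory cells (546 to 758 CPM in KO-labelled, 428 to 711 in WT-labelled mice) stood above every other subset, and in KO-labelled mice Th17 cells (0 to 7.23 CPM) overlapped only with cycling cells (3.36 to 25.7 CPM). Unnamed 3 cells of WT-labelled mice had the widest range of the subsets outside the cluster, 0 to 99.5 CPM. Of cytotoxic cells, 5.13% in mice with the KO label and 5.93% in those with the WT label had an Ikzf2 UMI, against 0.533% and 1.99% of Th17 cells, which were deeper.

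Outside the regulatory cluster, Il10 lay mainly in cytotoxic and unnamed 1 cells. Regulatory cells had 214 CPM in KO-labelled and 132 CPM in WT-labelled mice, with counting intervals of 181 to 251 and 97.6 to 173 CPM. These pool the mice and leave out the spread between them. The means over mice were 191 ± 92.9 and 172 ± 188 CPM (SD, n = 6 each). Cytotoxic cells followed at 9.05 and 8.02 CPM, and unnamed 1 cells at 5.47 and 2.19 CPM. Th17 cells of WT-labelled mice had no Il10 UMI in 1658 cells, and unnamed 3 cells of KO-labelled mice none in 2291 cells, which allow shares of cells with a UMI of up to 0.181% and 0.131%. In KO-labelled mice the 18 cytotoxic UMIs came from 3 mice, at up to 40.1 CPM, whereas in WT-labelled mice the 64 came from all 6, at 5.17 to 11.1 CPM. After thinning to 1500 UMIs, 0.819% of cytotoxic cells in mice with the KO label and 0.825% in those with the WT label had an Il10 UMI, while no Th17 cell under either label had one.

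Nrp1 stood at 31.3 CPM in regulatory cells under the KO label and 28.9 CPM under the WT label, from 22 and 11 UMIs. Recirculating cells followed at 4.26 and 2.79 CPM and held the largest part of its UMIs, 38.2% and 41.1%. In the remaining subsets it was at 0 to 3.62 CPM.

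Genes whose levels ran most like those of the 4 were looked for by Pearson correlation of log2(CPM + 10) over the 14 pools of subset by label, among 9211 genes with at least 200 UMIs. The 14 points share mice and 1 library, and the regulatory pools stand apart in all of them. Foxp3 ran closest with Lrrc32 (r = 0.997), Upp1 (0.991) and Wls (0.988). For Ikzf2 the closest were Chchd10 (0.966), Leprotl1 (0.961) and Bmp2k (0.960), and for Il10 Leprotl1 (0.989), Pcyt1a (0.986) and Jdp2 (0.982). Nrp1 ran with Lrrc32 (0.977), Tnfrsf13b (0.974) and Pcyt1a (0.973). Leprotl1 had only 3.53% of its UMIs in regulatory cells, against 90.5% for Lrrc32.

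Over all cells of a mouse, the level of each of the 4 genes was higher on average in KO-labelled mice, and in no case did the difference pass the test. Foxp3 was at 11.2 ± 4.40 CPM in KO-labelled and 7.76 ± 4.91 CPM in WT-labelled mice (SD, n = 6 each), with a lowest, median and highest mouse of 6.31, 10.8 and 16.2 CPM against 3.49, 6.34 and 15.9 CPM. KO-labelled mice 1 and 2 and WT-labelled mouse 6 were the highest, and the groups overlapped. The log2 fold change was 0.49 ± 0.35 (SE, edgeR quasi-likelihood test, adjusted p = 0.392 over 9861 genes).

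Ikzf2 was at 34.9 ± 11.6 CPM in KO-labelled and 25.8 ± 7.07 CPM in WT-labelled mice, with a lowest, median and highest of 24.4, 30.9 and 56.4 CPM against 17.4, 24.9 and 38.6 CPM. KO-labelled mouse 2 was the highest, and the groups overlapped (log2 fold change 0.39 ± 0.20, edgeR adjusted p = 0.213).

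Il10 was at 8.31 ± 5.28 CPM in KO-labelled and 4.56 ± 1.75 CPM in WT-labelled mice, with a lowest, median and highest of 3.98, 5.66 and 15.3 CPM against 3.03, 3.88 and 7.18 CPM. KO-labelled mice 1 and 2, at 14.8 and 15.3 CPM, stood above all other mice, and the other 4 KO-labelled mice lay within the range of WT-labelled mice. The log2 fold change of 0.81 ± 0.37 (edgeR adjusted p = 0.158) was 0.07 without these 2 mice.

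Nrp1 was at 2.72 ± 1.11 CPM in KO-labelled and 1.88 ± 0.945 CPM in WT-labelled mice, from 3 to 22 UMIs per mouse (log2 fold change 0.48 ± 0.34, edgeR adjusted p = 0.387). Thus 0 of the 4 were called at an adjusted p under 0.05, while 1 of them, Il10, had an unadjusted p under 0.05 (0.0413), and DESeq2 also called 0. All 4 had passed the filter on low counts. Among all 9861 genes tested 14.2% were called, 7.04% higher and 7.21% lower in KO-labelled mice.

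**Figure D2:**
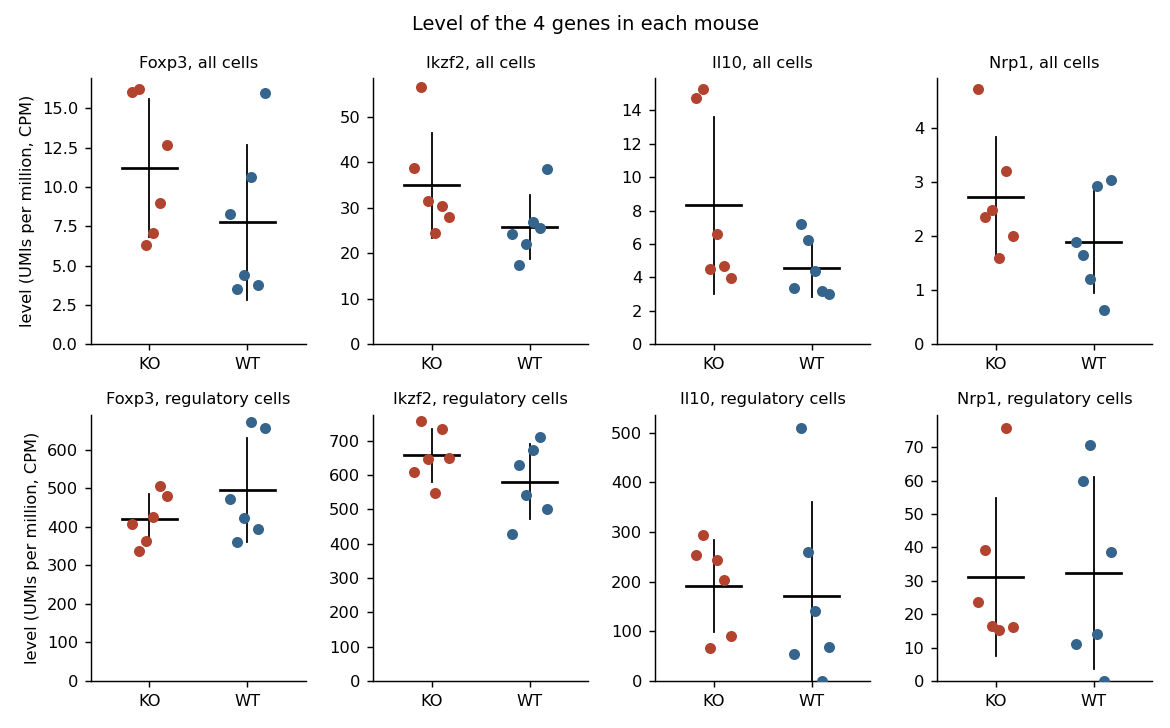
Level (CPM) of each gene in each mouse over all cells (upper row) and in regulatory cells (lower row), KO left of WT; points are mice, horizontal lines means and vertical lines 1 SD to each side, cut at 0. The groups overlap in all 8 panels, and Il10 over all cells is highest in KO-labelled mice 1 and 2.

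When clusters were weighted alike in all mice, 2 of the 4 directions turned. The log2 fold change was then -0.23 for Foxp3 (adjusted p = 0.451), -0.10 for Ikzf2 (0.757), 0.21 for Il10 and 0.32 for Nrp1, all by edgeR. Regulatory cells were 1.22% to 5.06% of a KO-labelled mouse's cells and 0.687% to 2.55% of a WT-labelled mouse's, and the part of their number in the levels over all cells was tested only in this way.

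With the regulatory cluster left out, the difference between labels in Ikzf2 and Il10 was smaller than the spread over mice. Ikzf2 was at 18.3 ± 3.34 CPM in KO-labelled and 19.0 ± 5.22 CPM in WT-labelled mice (log2 fold change -0.10 ± 0.16, edgeR adjusted p = 0.757), and without WT-labelled mouse 6 the sign turned (0.057). Il10 was at 2.84 ± 1.72 CPM in KO-labelled and 2.90 ± 0.908 CPM in WT-labelled mice (-0.07 ± 0.34, edgeR adjusted p = 0.919), and its sign turned without any 1 of 5 mice (KO-labelled mice 2, 5 and 6 and WT-labelled mice 2 and 3). Foxp3, at 0.978 ± 0.739 and 0.929 ± 0.712 CPM, and Nrp1, at 1.96 ± 1.17 and 1.54 ± 0.872 CPM, did not pass the filter on low counts there. Of 9825 genes tested outside the cluster 14.1% were called, 6.96% higher and 7.17% lower in KO-labelled mice.

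Within regulatory cells none of the members passed the test. The fit took the 5 KO-labelled and 3 WT-labelled mice with at least 20 regulatory cells, and 3 of the 4 genes passed its filter. Foxp3 was at 338 to 506 CPM in the 6 KO-labelled and 360 to 673 CPM in the 6 WT-labelled mice, which overlap (log2 fold change -0.52 ± 0.19, edgeR adjusted p = 0.328, unadjusted p = 0.0127). Ikzf2 was at 546 to 758 CPM against 428 to 711 CPM (0.30 ± 0.19, edgeR adjusted p = 0.576). Nrp1 was at 15.2 to 75.8 CPM against 0 to 70.6 CPM and was not tested.

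In regulatory cells of KO-labelled mice 1 to 6, Il10 was at 254, 293, 66.2, 243, 202 and 89.5 CPM. In those of WT-labelled mice 1 to 6 it was at 54.8, 510, 259, 140, 0 and 67.5 CPM. The groups overlap, and the highest and the lowest mouse both carry the WT label. The log2 fold change was 1.38 ± 0.40 (edgeR adjusted p = 0.241, unadjusted p = 0.00237). WT-labelled mice 2, 3 and 5 and KO-labelled mouse 3 gave 13, 10, 11 and 19 regulatory cells and were not in this fit. WT-labelled mice 2 and 3 had the highest Il10 of their label, and WT-labelled mouse 5 and KO-labelled mouse 3 the lowest of theirs. With mice of at least 10 cells, which takes in all of these, the log2 fold change was 0.55. Without KO-labelled mouse 6 it was 1.57 and passed (adjusted p = 0.0277).

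Of the 1754 genes tested in regulatory cells 9, or 0.513%, were called. The inhibitory receptor gene Klrg1 was higher in KO-labelled mice (log2 fold change 0.95 ± 0.21, edgeR adjusted p = 0.0404), a call that did not hold when KO-labelled mouse 1, 2, 4 or 5 or WT-labelled mouse 4 or 6 was left out (adjusted p from 0.0638 to 0.206). The other 8, named after their values were seen, were Plac8 (1.59) and Camk2n1 (1.15), which were higher, and Tmem176b (-3.02), the chemokine receptor gene Cxcr4 (-1.79), Txnip (-1.48), the interleukin 7 receptor gene Il7r (-0.96), the lymphotoxin gene Ltb (-0.82) and Hsp90ab1 (-0.60), which were lower. The count was 2 with mice of at least 10 cells and 0 without KO-labelled mouse 1, 1 without KO-labelled mouse 2, and 1 without WT-labelled mouse 6. Without both KO-labelled mice 1 and 2 it was 0, and the log2 fold change was -0.36 for Foxp3, 0.27 for Ikzf2 and 0.96 for Il10.

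In other subsets Ikzf2 alone passed the filter, in 3 of 6. Its log2 fold change was -0.23 ± 0.30 in cytotoxic (edgeR adjusted p = 0.807), 0.03 ± 0.26 in recirculating (0.988) and -0.21 ± 0.31 in unnamed 1 cells (0.822). Genes called there were 2.89% in cytotoxic, 5.48% in recirculating and 4.65% in unnamed 1 cells.

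Whether the label acts differently in regulatory cells than outside them was tested within each of the 8 mice with limma. For Ikzf2 the difference between the 2 log2 fold changes was 0.56 ± 0.23 and for Il10 1.07 ± 0.44 (adjusted p = 0.444 for both), while Foxp3 and Nrp1 were not tested. Of 1751 genes 1 was called, or 0.0571%, namely Penk, the gene of the enkephalin precursor, with a difference of 3.98 ± 0.55 (limma adjusted p = 0.00522), a call lost without WT-labelled mouse 6 (3.83, adjusted p = 0.0716).

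The share of a gene's UMIs that lay in regulatory cells was compared mouse by mouse. Such a share depends on the number of regulatory cells as well as on the level in them, and the 2 were not told apart by a test. KO-labelled mouse 2, with 5.06% regulatory cells, had an Ikzf2 share of 64.6%, and WT-labelled mouse 3, with 0.687%, had 20.9%. For Ikzf2 the share was 46.0% ± 14.2 in mice with the KO label and 27.1% ± 5.98 in those with the WT label (SD, n = 6 each, exact permutation test, two-sided p = 0.0152, adjusted p = 0.0606 over the 4 genes). It was 27.9% to 64.6% in KO-labelled and 20.9% to 37.2% in WT-labelled mice, where KO-labelled mice 3 and 4 lay within the range of the WT-labelled mice. The difference passed without KO-labelled mouse 3 (adjusted exact p = 0.0173) and without WT-labelled mouse 4 (0.0346). Without KO-labelled mice 1 and 2 it was 11.5 percentage points, against 18.9 with them (adjusted exact p = 0.267).

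For Il10 the share was 58.8% ± 24.2 in mice with the KO label and 34.4% ± 18.7 in those with the WT label (exact permutation p = 0.0823, adjusted p = 0.165). Counted by cells instead of UMIs it was 54.1% ± 21.1 against 24.1% ± 19.1 (exact permutation p = 0.0303, adjusted p = 0.0606). Counted by UMIs, it passed without KO-labelled mouse 3 (adjusted exact p = 0.0173), whose share was 20%, the lowest of its label. Without KO-labelled mice 1 and 2 the difference was 15.1 percentage points, against 24.4 with them (adjusted exact p = 0.590). WT-labelled mouse 5 had no Il10 UMI in its 11 regulatory cells.

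For Foxp3 the share was 90.1% ± 7.68 in mice with the KO label and 85.6% ± 9.64 in those with the WT label (exact permutation p = 0.396), with 100% in KO-labelled mouse 2. Nrp1 had 30.0% ± 26.7 against 19.8% ± 18.1 (exact permutation p = 0.498). The smallest p that the 924 assignments of 12 mice can give is 0.00216.

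**Figure D3:**
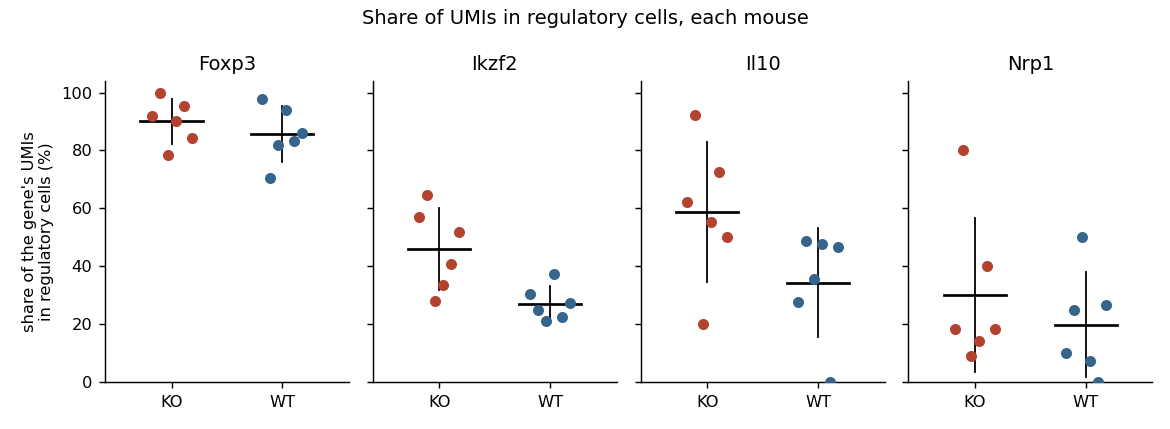
Share of each gene's UMIs that lay in regulatory cells (vertical axis, %) in each mouse, KO left of WT; points are mice, horizontal lines means and vertical lines 1 SD to each side. Foxp3 is above 70% in all 12 mice, and for Ikzf2 4 of 6 KO-labelled mice lie above all WT-labelled mice.

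The share of all cells with a UMI, after each cell was thinned to 1500 UMIs, did not pass for any of the 4 genes. It was 1.15% ± 0.358 in mice with the KO label and 0.810% ± 0.503 in those with the WT label for Foxp3, 3.57% ± 0.687 and 3.26% ± 1.13 for Ikzf2, 0.595% ± 0.217 and 0.434% ± 0.133 for Il10, and 0.384% ± 0.165 and 0.205% ± 0.124 for Nrp1 (exact permutation adjusted p from 0.274 to 0.582). Unthinned, the shares were 1.77% and 1.17%, 5.75% and 5.36%, 0.933% and 0.800%, and 0.651% and 0.523%. Thinning dropped 491 cells under the KO label and 407 under the WT label.

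Single regulatory cells differed in which of these genes they showed. Of the 254 regulatory cells of KO-labelled mice, 121 had UMIs of both Foxp3 and Ikzf2, 74 of Ikzf2 only, 32 of Foxp3 only and 27 of neither. Of the 126 of WT-labelled mice, 60 had both, 25 Ikzf2 only, 29 Foxp3 only and 12 neither. The share with either was 84.2% to 96.6% in KO-labelled and 84.6% to 100% in WT-labelled mice. Per regulatory cell there were 1.20 ± 0.217 Foxp3 UMIs in mice with the KO label and 1.55 ± 0.350 in those with the WT label (SD, n = 6 each), so a cell without one can be a cell in which none was captured.

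Thinned to 1500 UMIs, 44.3% ± 8.31 of regulatory cells had a Foxp3 UMI in KO-labelled mice and 53.1% ± 11.6 in WT-labelled mice, while 57.8% ± 9.98 and 52.8% ± 10.9 had an Ikzf2 UMI. For Il10 the shares were 14.6% ± 4.50 and 11.8% ± 11.3, and for Nrp1 5.18% ± 3.95 and 2.01% ± 3.67. None of these 4 differences passed (exact permutation adjusted p from 0.377 to 0.584). Unthinned, Il10 was found in 53 regulatory cells under the KO label and 18 under the WT label, and 35 and 13 of these cells also had a Foxp3 UMI.

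Outside the regulatory cluster, Il10 was found in 38 cells under the KO label and 55 cells under the WT label, and none of the 93 had a Foxp3 UMI. Of all cells outside it only 0.222% and 0.211% had one, so 93 cells are too few to read a lack of Foxp3. By subset, Il10 was found in 11 of 818 cytotoxic cells under the KO label and 40 of 3037 under the WT label, 1.34% and 1.32%, and 19 of 3170 and 3 of 770 unnamed 1 cells, 0.599% and 0.390%. After thinning, 50 of the Il10-positive cells remained. The Tr1-linked factor gene Eomes was in 30% of them, against 8.38% of Il10-negative cells weighted to the same subsets, the inhibitory receptor gene Lag3 in 20% against 3.19%, and Maf, a factor that promotes Il10, in 40% against 17.3%. The activating receptor gene Cd226, which is on the same Tr1-linked list, was in 4% against 19.4%. Others of that list went either way. Il10ra was in 24% against 4.35%, Ahr in 6% against 10.8% and Bhlhe40 in 74% against 87.5%. Prdm1 was in 12% against 10.9%, Irf4 in 14% against 14.3% and Itga2 in 2% against 1.30%. All of these were named after their values were seen. Only 5 mice had at least 5 positive cells, so the exact sign-flip test over mice cannot go below 0.0625, and 0 of 53 pairs of a gene and a partner passed. Cd226 was lower in 5 of 5 mice, Lag3 and Maf were higher in 4 of 5, and Eomes in 3 of 5. Thinned to 1000 UMIs, with 49 positive cells and 6 mice, Eomes was in 22.4% against 6.42% (higher in 5 mice), Maf in 28.6% against 12.3% (higher in 5), Lag3 in 6.12% against 2.19% (higher in 3) and Cd226 in 8.16% against 13.6% (lower in 4).

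The 40 Foxp3-positive cells outside the cluster gave 23 after thinning, and 2 mice had at least 5. None of the 23 had an Ikzf2, Il10, Lrrc32 or Nrp1 UMI. Of Foxp3-negative cells weighted to the same subsets 2.32%, 0.301%, 0.0643% and 0.196% had one, so 23 cells are too few to read a lack. Unthinned, 2 of 21 under the KO label and 4 of 19 under the WT label had an Ikzf2 UMI, against 3.86% and 4.50% of all cells outside the cluster. Itgae, the integrin chain CD103 of mucosal T cells, was in 43.5% of them against 8.10% of Foxp3-negative cells, the feedback inhibitor gene Socs2 in 43.5% against 7.22%, and Tnfrsf9 in 34.8% against 12.1%, all named after their values were seen. Other regulatory T cell genes, also named after their values were seen, went either way in the 23 cells. Ctla4 was in 73.9% against 56.2% and Tigit in 39.1% against 24.7%. Tnfrsf18 was lower, in 39.1% against 49.6%, and Il2ra was in 17.4%, not above its share in Foxp3-negative cells. In the 2 mice with at least 5 Foxp3-positive cells, Socs2 and Tnfrsf9 were higher in both and Itgae in 1 of them. Thinned to 1000 UMIs, 16 cells were left, and the shares were 18.8% against 6.08% for Itgae, 18.8% against 5.12% for Socs2 and 12.5% against 7.82% for Tnfrsf9. Ctla4 was then in 68.8% against 42.4%, while Tigit, in 6.25% against 18.4%, and Tnfrsf18, in 25% against 38.9%, were lower. No test of these can pass, since 2 mice allow no p below 0.5.

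Clonotypes, which the choice of the genes did not use, set the regulatory cells apart. A clonotype is the receptor sequence that descendants of 1 T cell share. A mouse gave 6 to 71 regulatory cells with a clonotype. Of these cells, 12 of 212 in mice with the KO label and 23 of 88 in those with the WT label had one that also occurred outside their cluster in the same mouse. The mean over the 12 mice was 16.3% ± 15.5 in regulatory cells, against 62.8% ± 4.45 in recirculating, 67.4% ± 8.01 in cytotoxic, 73.6% ± 13.1 in Th17, 81.1% ± 6.82 in cycling, 65.4% ± 10.2 in unnamed 1 and 63.4% ± 8.88 in unnamed 3 cells. Regulatory cells were lower in 12 of 12 mice in each of the 6 comparisons (exact sign-flip permutation p = 0.000488, the smallest 12 mice can give, adjusted p = 0.00114 over 14 clonotype tests). These tests were chosen after the data were seen, and receptor segments are among the genes from which clusters can form.

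Between labels, the shared part was 6.81% ± 10.1 in mice with the KO label and 25.9% ± 14.5 in those with the WT label (exact permutation p = 0.0433, adjusted p = 0.0866). It was 4, 7.04, 26.7, 0, 0 and 3.13% in KO-labelled mice 1 to 6 and 25, 40, 0, 31.3, 37.5 and 21.4% in WT-labelled mice 1 to 6. KO-labelled mouse 3 lay among the WT-labelled mice and WT-labelled mouse 3 among the KO-labelled. No clonotype of the 212 and 88 regulatory cells was found in another mouse. Of the other cells, 1.63% under the KO label and 1.6% under the WT label had one that was. This was not tested, and with so few regulatory cells, some of 1 clone, no lack is read from it.

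Some regulatory cells shared a clonotype with others of the cluster. The part in clones of at least 2 cells of the cluster was 45.2% ± 20.6 in mice with the KO label and 26.1% ± 21.0 in those with the WT label (exact permutation p = 0.175, adjusted p = 0.205). This part depends on how many cells were sampled. KO-labelled mice gave 15 to 71 regulatory cells with a clonotype and WT-labelled mice 6 to 28, and the share of this in the difference was not tested. In KO-labelled mouse 2, 19 of 71 regulatory cells with a clonotype belonged to 1 clone.

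**Figure D4:**
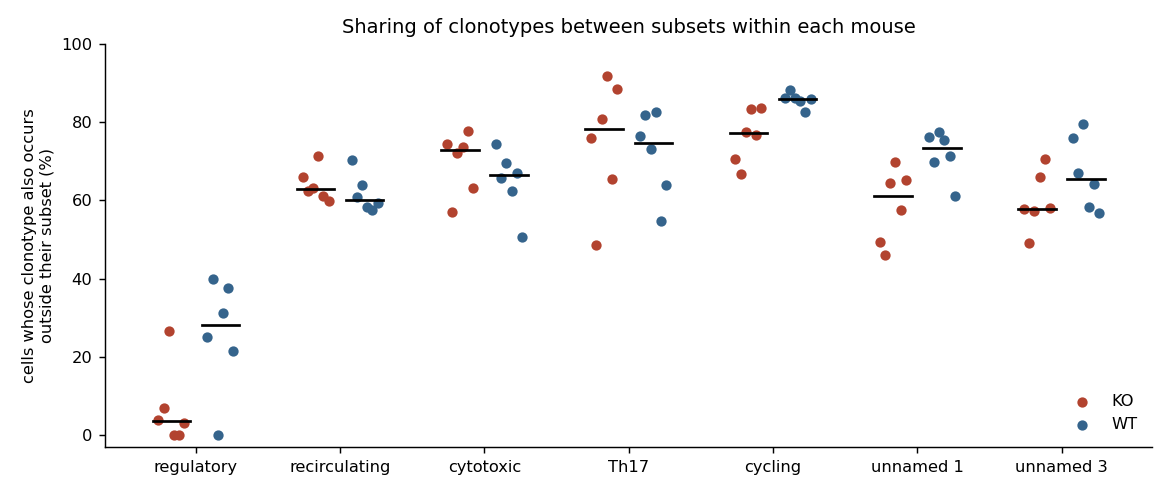
Share of cells with a clonotype whose clonotype also occurred outside their subset in the same mouse (vertical axis, %), by subset, KO left of WT; points are mice and lines medians. Regulatory cells lie between 0% and 40% in all 12 mice, below the other 6 subsets in each mouse.

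Clones were also counted by the members' own UMIs, with no test. Among regulatory cells with a Foxp3 UMI, 8 of 131 in mice with the KO label and 17 of 68 in those with the WT label shared a clone outside the cluster, and among those without one 4 of 81 and 6 of 20 did. Of the Foxp3-positive cells outside it, 2 of 16 in mice with the KO label and 0 of 14 in those with the WT label had a clonotype seen in regulatory cells. Of the Il10-positive cells outside it, 1 of 31 and 0 of 47 did.

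Genes around the members were followed in 5 lists. The share of all genes called, against which each count stands, is the one given above for each test. Of the 23 genes of the regulatory T cell programme 20 were tested over all cells, and 5 rose and 3 fell, with a median log2 fold change of 0.12 against -0.000216 over all genes. Socs2 rose by 0.88 ± 0.10 (edgeR adjusted p = 3.6e-05), at 79.5 ± 13 CPM in KO-labelled and 41.8 ± 4.45 CPM in WT-labelled mice, and the actin-capping gene Capg rose by 0.80 ± 0.10 (1.0e-04). With clusters weighted alike Socs2 was at 0.42. Nt5e, which encodes the ectonucleotidase CD73, fell by 0.93 ± 0.10 (edgeR adjusted p = 1.8e-05), at 23.6 ± 3.22 CPM against 43.6 ± 5.26 CPM, and the inhibitory receptor gene Tigit fell by 0.75 ± 0.09 (5.6e-05).

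Outside regulatory cells 3 genes of this list rose and 3 fell of 19 tested, with a median of 0.08 against 0.000327 over all genes. The costimulatory receptor gene Tnfrsf9 was at 0.35 over all cells (edgeR adjusted p = 0.00563) and at 0.12 outside (0.296), and over all cells its call was lost with clusters weighted alike (0.17, adjusted p = 0.195). In regulatory cells 0 of 16 tested were called, with Il2ra at 711 CPM under the KO label and 802 CPM under the WT label and Ctla4 at 2778 and 2686 CPM. The log2 fold change there was -0.06 for Socs2, -0.11 for Capg and 0.12 for Tigit, and Nt5e was not tested. The changes of these genes over all cells are thus not read as changes within regulatory cells. With clusters weighted alike, the counts over all cells were 3 and 6 and the median was -0.15, so no direction can be given for the list. The other 4 lists then had 2 and 3, 1 and 3, 1 and 3, and 2 and 1 called higher and lower, in the order in which they follow.

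Of the 10 genes that tell thymic-type, microbe-induced and tissue-type regulatory T cells apart, 4 rose and 4 fell over all cells, with a median of 0.22. Batf, a factor needed for tissue regulatory T cells, fell by 0.78 ± 0.12 (edgeR adjusted p = 4.9e-04), Satb1, a chromatin organiser, fell by 0.52 ± 0.08 (3.9e-04) and Areg fell by 0.75 ± 0.15 (0.00375). Maf rose by 0.58 ± 0.13 (edgeR adjusted p = 0.00552), a call lost with clusters weighted alike (0.20, adjusted p = 0.128). Klrg1 rose by 0.85 over all cells (edgeR adjusted p = 0.0293) and was at -0.21 outside regulatory cells (0.637). Its call over all cells was lost without KO-labelled mouse 1 or 2 or WT-labelled mouse 2, 3 or 4 (adjusted p from 0.0591 to 0.0783), and without both KO-labelled mice it was at 0.46 (0.211). Outside them 3 rose and 4 fell, with a median of -0.12. In regulatory cells 1 of 8 tested was called, Klrg1. The log2 fold change there was -0.03 for Batf, -0.31 for Satb1, -0.55 for Areg and 0.31 for Maf, so their calls over all cells are not read as changes within regulatory cells.

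**Figure D5:**
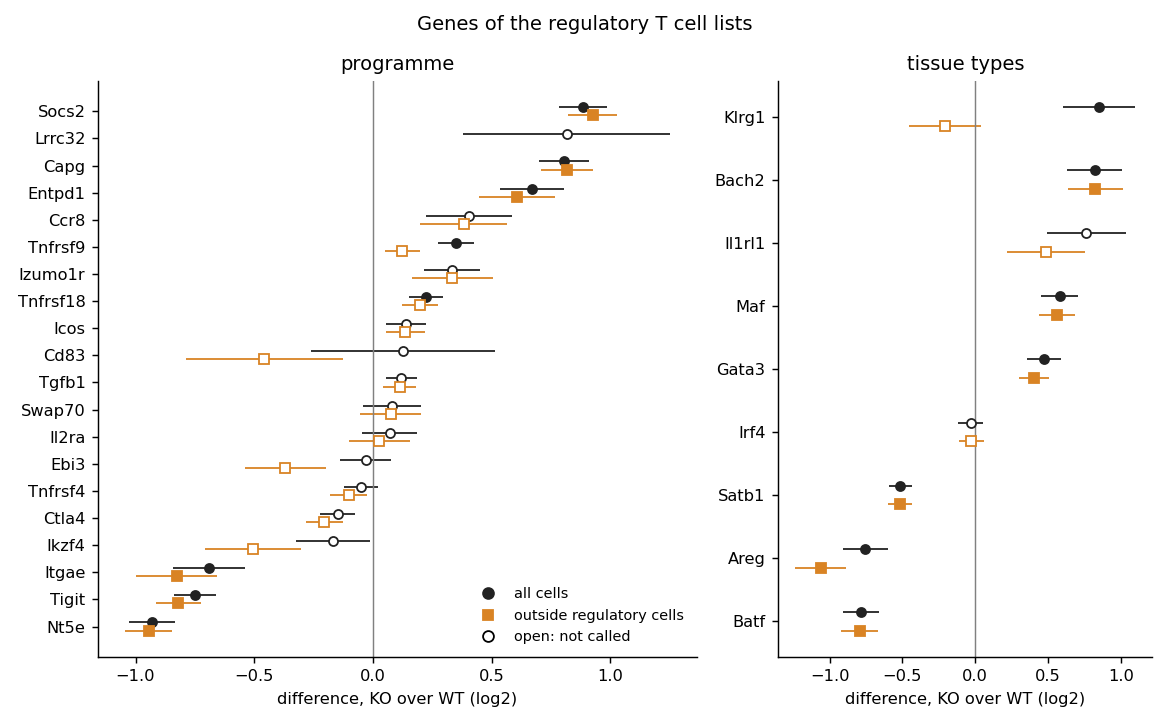
Difference between KO-labelled and WT-labelled mice (log2 fold change with its SE) for genes of the regulatory T cell programme (left) and the tissue-type list (right), over all cells (circles) and outside regulatory cells (squares); filled symbols were called, and 1 gene of the tissue-type list is not drawn. Klrg1 and Tnfrsf9 are filled over all cells and open outside regulatory cells, while Socs2, Capg, Tigit, Nt5e and Batf are filled in both.

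Of 17 regulators of Il10 and Tr1-linked genes 16 were tested, and 3 rose and 3 fell both over all cells and outside regulatory cells, with medians of 0.06 and 0.03. Ahr, a sensor of microbial and dietary ligands that can induce Il10, rose by 0.79 ± 0.09 (edgeR adjusted p = 3.8e-05), and was at 0.50 with clusters weighted alike. Eomes fell by 3.21 ± 0.33 (edgeR adjusted p = 1.3e-05), at 5.26 ± 2.48 CPM in KO-labelled and 47.6 ± 20 CPM in WT-labelled mice, and Lag3 fell by 1.51 ± 0.27 (0.00135). With clusters weighted alike these 2 were at -1.83 and -0.97. Cytotoxic cells numbered 818 in all under the KO label and 3037 under the WT label. In regulatory cells 0 of 9 were called. Il10ra, the receptor chain for interleukin 10, was at 96.9 and 52.6 CPM there, against 13.1 and 18.4 CPM outside.

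Of 21 genes of the signals upstream of Foxp3 all were tested, and 5 rose and 2 fell in both tests, with medians of 0.09 and 0.10. Nfatc1, a factor activated by the T cell receptor, rose by 0.36 ± 0.07 (edgeR adjusted p = 0.00276), Smad3, which carries the TGF-β signal, rose by 0.28 ± 0.07 (0.0165) and the costimulatory gene Cd28 rose by 0.24 ± 0.07 (0.0377). Jak3, the kinase of the interleukin 2 receptor, fell by 0.39 ± 0.07 (edgeR adjusted p = 0.00156). The call of Cd28 was lost without any 1 of 8 mice (adjusted p from 0.0605 to 0.0894), and those of Cd28 and Smad3 with clusters weighted alike (0.0916 and 0.105). In regulatory cells 0 of 14 were called.

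Of 9 cytokine and effector genes that accompany Il10 in helper cells, 2 rose and 2 fell in both tests, with medians of 0.16 and 0.07. Il2, the cytokine on which regulatory T cells depend, rose by 1.72 ± 0.32 (edgeR adjusted p = 0.00167), and Csf2, the gene of a myeloid growth factor, rose by 0.99 ± 0.24 (0.0107). The chemokine gene Ccl5 fell by 1.67 ± 0.17 (edgeR adjusted p = 1.5e-05) and the cytokine gene Il22 fell by 1.61 ± 0.43 (0.0197). With clusters weighted alike Ccl5 was at -0.86 and Il22 at -0.17 (adjusted p = 0.811), and Il22 was at -1.10 without WT-labelled mouse 6 (0.0502). The granzyme gene Gzmb stood at 5301 CPM in regulatory cells under the KO label and 4304 CPM under the WT label, against 926 and 846 CPM outside, and was not called within regulatory cells.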

How the data were processed

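Colonic CD4 T cells of 12 mice were measured in 1 pooled gene expression library, and the hashtag data enter only through the mouse that the deposited annotation gives each cell. Cell Ranger 3.1.0, Seurat 3.1.5 and the builds GRCm38 and mm10 appear in the submitters' processing notes. The authors deposited UMI counts for 11971 genes in 18860 cells, with the mouse, label, cluster and clonotype of each cell, and in the same annotation the percent of UMIs from mitochondrial genes and a score for doublets. The cell filter and the use of strand are not given in the sources used here, and no doublet caller was run; the highest deposited doublet score was 0.354. Cell barcodes were unique. Clusters 1 and 3, which have a general CD4 label, are referred to as unnamed 1 and unnamed 3 cells.

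Sums of UMIs over each mouse, and over each subset of a mouse, went into edgeR 4.0.16 under R 4.3.3 (quasi-likelihood test, TMM, filterByExpr, two-sided, Benjamini-Hochberg over all genes tested, called under 0.05); within subsets, a mouse needed at least 20 cells. The standard error is the log2 fold change over the square root of F. Effects in and outside regulatory cells were compared with limma 3.58.1, and shares with exact permutation tests over mice in scipy 1.17.1. For shares of cells with a UMI, cells were thinned to 1500 UMIs. The fits were tested on simulated data. The mouse was the replicate; donors of the transferred cells are not given, so p-values measure the spread between recipients. Clonotypes that occurred in the same mouse outside a cell's subset were counted as shared.

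The 4 genes and the lists were chosen with earlier results of these data known. The rule for named genes took the 4 members, up to 4 called genes per list with the smallest p over all cells or outside regulatory cells, the 3 genes most like each member (passing over unnamed gene models, antibody genes and segments of the T cell receptor), and partner genes that passed; Klrg1, Tnfrsf9 and genes given only by level or as partners were added after their values were seen. Alternatives were DESeq2 size factors, the DESeq2 1.42.0 test, no filter, no cycling cells, clusters weighted alike, other minimums of cells, other depths of thinning and each mouse left out. Added later were leaving out KO-labelled mice 1 and 2, mice left out within regulatory cells, shares within regulatory cells, at least 1 positive cell per mouse for partners and the clonotype tests. RefSeq promoter windows matched 2 of the 4 genes. A single gene of the tissue-type list enters that list's counts and medians, and its own values are not reported here.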

Additional observations from a re-analysis of the deposited data

Results flagged for a closer look

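In 46 groups of 6 mice, the gap from the highest or lowest mouse to the next was set against the group's range, and 3 groups passed the critical value of 0.625; chance gives about 1 in 20. WT-labelled mouse 6 had an Ikzf2 UMI in 5.40% of its thinned cells, against 3.21% in the next WT-labelled mouse. In KO-labelled mouse 2, 84.5% of regulatory cells were in clones of the cluster, against 46% in the next KO-labelled mouse. In KO-labelled mouse 3, 26.7% of regulatory cells with a clonotype, 4 of 15 cells, shared it with other subsets, against 7.04% in the next KO-labelled mouse.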

How the results depend on the processing

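No paired analysis was possible because the labels give no shared replicate numbers, and mouse numbers in the deposited annotation do not pair KO-labelled with WT-labelled mice. Over all cells 1405 genes were called, 1073 to 1867 with 1 mouse left out and 770 without KO-labelled mice 1 and 2; outside regulatory cells 1388 were called, 1051 to 1872 and 748. Weighted alike, the log2 fold change over all cells was -0.23 for Foxp3 and -0.10 for Ikzf2, and outside regulatory cells 0.34 for Il10 and 0.35 for Klrg1, which was at 0.041 there without KO-labelled mice 1 and 2. With 1 mouse left out it ranged outside regulatory cells from -0.18 to 0.057 for Ikzf2 and from -0.40 to 0.077 for Il10. In regulatory cells 0 to 12 genes were called with 1 mouse left out, 0 without KO-labelled mice 1 and 2 and 2 with at least 10 cells per mouse, and Il10 ranged from 1.15 to 1.82. For the difference between regulatory and other cells, 0 to 11 were called with 1 mouse left out and 14 with at least 10 cells per mouse. The difference in the share of UMIs in regulatory cells ranged from 15.1 to 22.5 percentage points for Ikzf2 and from 17.5 to 32.2 for Il10 with 1 mouse left out. In percentage points, the share of cells with a UMI differed by -0.46 for Ikzf2 and -0.078 for Il10 without regulatory cells, by -0.091 for Ikzf2 without KO-labelled mice 1 and 2 and by -0.084 for Nrp1 at 500 UMIs, and the share of regulatory cells with an Nrp1 UMI by -2.96 unthinned. The cause of these changes was not tested. With at least 1 positive cell per mouse 10 partner pairs passed in place of 0, and in 8 of these the partner was in none of the positive cells, which a rare partner gives by construction with so few of them. The others were Cd226 (lower in 11 of 12 mice, exact sign-flip adjusted p = 0.0296) and Il10ra (24% against 4.35%, higher in 8 of 12 mice, adjusted p = 0.0466) in Il10-positive cells. For the list genes chosen by smallest p, 654 of the alternative values kept their call and 30 lost it. A minimum of 50 cells left no WT-labelled mouse for regulatory cells, and in subsets where the minimum kept the same mice nothing was refitted. Depth limits Nrp1 most, with 3 to 22 UMIs per mouse.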
